A study of Mus musculus with 24 samples.

Results

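Macrophages are phagocytes of the myeloid lineage, and leukocyte genes can be read in RNA of a tissue culture as a sign of such cells. The macrophage lineage depends on the transcription factor PU.1, encoded by Spi1, and on the growth factor receptor encoded by Csf1r. Its cells carry Fc receptors with their signalling adaptors, make the complement protein C1q and lysosomal enzymes, and sense bacterial lipopolysaccharide (LPS) through Toll-like receptors. The 36 macrophage and leukocyte marker genes described here were chosen by symbol, with earlier results of these data known. All 36 were found among the 45706 genes of the deposited count files. They were followed in 24 RNA-seq libraries of mouse embryonic fibroblasts (MEFs). Such cultures are grown from minced embryos and can hold embryonic macrophages beside the fibroblasts.

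The mutant genotype was GR Zn/Zn, with a modified glucocorticoid receptor (GR) on both alleles that the series ties by its title to direct DNA binding, and its counterpart was GR wt/wt. Both came from male C57BL/6 embryos of day 13.5 without head and inner organs, cultured for 7 days. Cells of each genotype received dexamethasone with LPS (1 uM dexamethasone for 16 h and 100 ng/ul LPS for 6 h), LPS with ethanol vehicle, dexamethasone alone (Dex, a synthetic glucocorticoid), or vehicle alone for 16 h, with 3 libraries in each of the 8 groups. No Cre or transgene is named. The labels do not say whether the replicates of a group came from different embryos. The p-values therefore measure the spread among these libraries, which may be technical, and an effect of the genotype cannot be told apart from one of the embryos used for it.

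Libraries held 18.9 to 25.5 M counted reads in 21 cases and 43.9 to 58.0 M in the other 3, which carry later library numbers, and the 36 genes drew 3082 to 20973 reads per library. All 36 passed the expression filter among 15221 genes tested; 35 of 36 passed it with the wild-type libraries alone, where Aif1 failed. Aif1 was also the single gene at 0 in a library, wild type with LPS replicate 1, where a count of 0 allows up to 3 reads. Across libraries 3 reads correspond to 0.0518 to 0.159 counts per 1e6 reads (CPM), and this limit covers counting error only. The labelled cell type matched its markers, since 12 fibroblast genes summed to 28830 to 37587 CPM in mutant and 30994 to 34889 CPM in wild-type libraries. Lymphocyte genes were near 0, with 0 of 13 past the filter and a sum of at most 0.362 CPM in any library, and 11 neutrophil and mast cell genes summed to at most 1.13 CPM.

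The 36 genes behaved in one way between genotypes and in another between treatments. Between genotypes all 36 were higher in the mutant, with a median log2 of 0.97 and an SD over the genes of 0.27 averaged over the 4 treatments, against a median of 0.00 and an SD of 0.50 over all genes tested. That SD was also above the median standard error (SE) of single genes, 0.08, so the 36 differed among themselves in the size of the shift. Under LPS some were higher, some lower and 12 were called in neither genotype, with a median near 0 and an SD over the genes of 1.28 in the mutant and 1.33 in wild type, where the median SE was 0.15 and 0.18. With Dex the SD over the genes was 0.17 in the mutant, where the median SE was 0.16, and 0.60 in wild type, where it was 0.19. In bulk RNA, more cells of a type and more RNA per cell cannot be told apart.

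**Figure D1:**
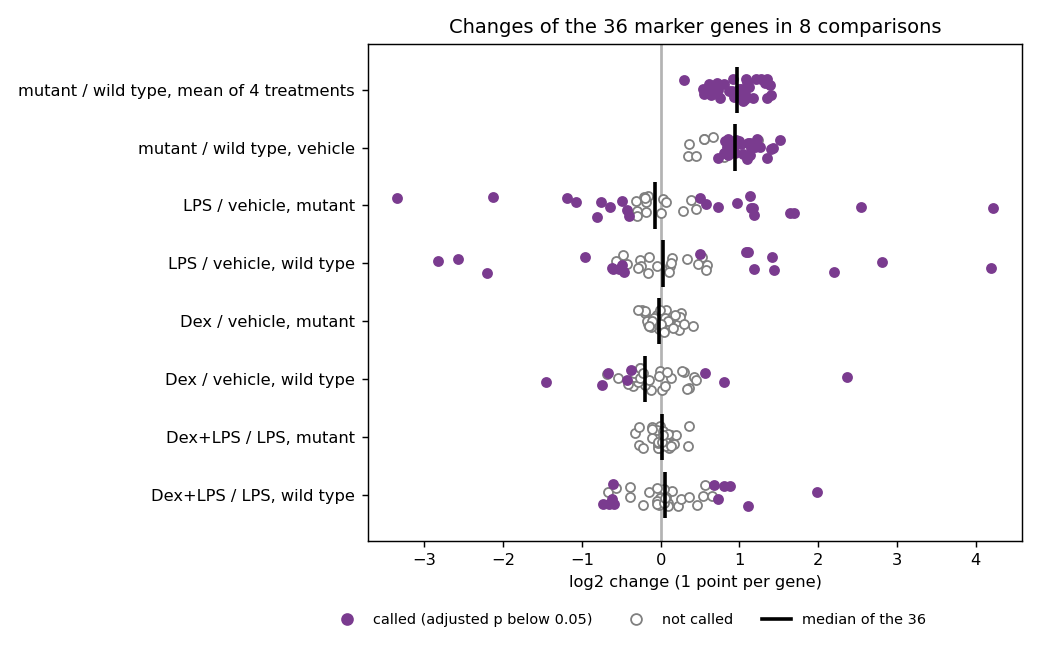
Log2 changes of the 36 marker genes (x axis, 1 point per gene) in 8 comparisons (rows), with called genes filled and the median as a black bar. The genotype rows form narrow groups near 1, the LPS rows spread from -3.34 to 4.22 around a median near 0, and the mutant Dex rows hold no called gene and lie close to 0.

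In vehicle, the summed level of the 36 genes was 370 ± 1.46 CPM in mutant and 175 ± 4.78 CPM in wild-type cultures (SD, n = 3 each), a ratio of 2.11. It was 363 ± 16.9 CPM in mutant and 152 ± 6.24 CPM in wild-type cultures with Dex (ratio 2.38) and 382 ± 13.9 CPM in mutant and 190 ± 2.86 CPM in wild-type cultures with LPS (ratio 2.01). With Dex and LPS it was 394 ± 13 CPM in mutant and 186 ± 5.0 CPM in wild-type cultures (ratio 2.12). Over all treatments the 12 mutant libraries lay at 343 to 406 CPM and the 12 wild-type libraries at 146 to 194 CPM, with no overlap. Lyz2, the lysozyme gene of macrophages, made up 23.3 to 33.8% of the sum in mutant and 20.5 to 26.6% in wild-type libraries.

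**Figure D2:**
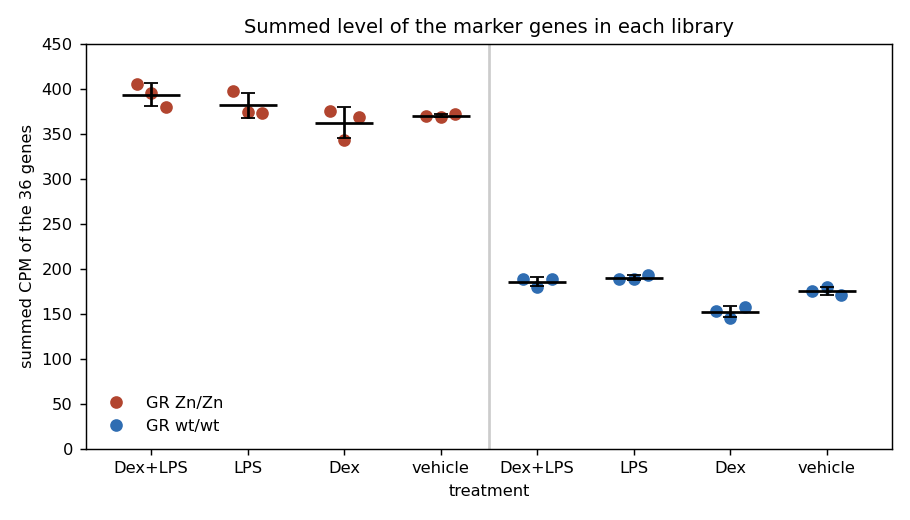
Summed CPM of the 36 marker genes (y axis) in each library (points) by treatment, GR Zn/Zn on the left and GR wt/wt on the right, with the mean (bar) and SD of 3 libraries. All mutant libraries lie at 343 CPM or more and all wild-type libraries at 194 CPM or less.

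The highest level per length in vehicle was that of Lyz2, at 89.4 CPM per kb of exon in the mutant and 35 in wild type. C1qb, a chain of C1q, followed at 11.6 and 6.40 CPM per kb in mutant and wild type, and Cd68, a lysosomal glycoprotein of phagocytes, at 9.63 and 5.31. The lowest was Fcgr2b, the inhibitory Fc receptor, at 0.0646 CPM per kb in the mutant and 0.0466 in wild type.

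Of the 36 genes, 28 were higher in mutant than in wild-type vehicle cultures and 0 lower, at a Benjamini-Hochberg adjusted p below 0.05 in edgeR's quasi-likelihood test over all genes tested, where 8.69% of genes were called higher and 10.1% lower. Averaged over the 4 treatments all 36 were called higher, against 23.3% of all genes called higher and 24.7% called lower. Of the 36, 35 lay within 0.5 of the median log2. Aif1 is counted here although it failed the filter with the wild-type libraries alone. It entered the test through the mutant libraries, where it was higher, so its call adds no separate evidence. In vehicle the median log2 was 0.95, with an SD over the genes of 0.29. Without the 3 later-numbered libraries 36 genes were called averaged over treatments and 29 in vehicle, at medians of 0.97 and 0.96, and without these and 2 more libraries that stood apart (replicate 2 of the mutant and replicate 1 of wild type, both with Dex and LPS) 36 and 30 were called. The shares of all genes called in these reduced fits are not given here. With all libraries, the 3 mutant libraries lay above all 3 wild-type libraries for 33 of the 36 genes in vehicle, which held for 17.0% of all genes. The same held for 32 genes with Dex (22.9% of all genes), 32 with LPS (24.8%) and 27 with Dex and LPS (15.6%).

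Among lysosome and phagocyte effector genes, Lyz2 (ENSMUSG00000069516, chromosome 10, 117277331 to 117282321; GRCm38) had 125, 112 and 116 CPM in mutant and 46.7, 46.9 and 44.4 CPM in wild-type vehicle cultures. The groups lay far apart, at 2.56-fold (log2 1.36 ± 0.07, SE; adjusted p = 3.09e-12), and averaged over treatments the log2 was 1.35 ± 0.04 (adjusted p = 1.58e-18). Lyz2 has a near copy, Lyz1, and reads that fit both genes make its level uncertain. Ctss, the lysosomal protease cathepsin S (ENSMUSG00000038642, chromosome 3, 95526786 to 95556403), had 12.6, 12.9 and 11.3 CPM in mutant and 4.94, 6.77 and 5.38 CPM in wild-type vehicle cultures (log2 1.11 ± 0.11, adjusted p = 1.60e-07). Again no wild-type library reached a mutant one. Also higher were Mpeg1, a pore-forming protein of phagocytes, at 28.9 ± 1.82 CPM in mutant and 14.4 ± 1.81 CPM in wild type, Cd68 (log2 0.85), Cybb, the catalytic subunit of the phagocyte NADPH oxidase (1.15), and Ncf4, a cytosolic subunit of that oxidase (0.95, adjusted p = 0.0381). Aif1, the calcium-binding protein IBA1, had 0.265, 0.571 and 0.295 CPM in mutant and 0.190, 0.175 and 0.0827 CPM in wild type, close to the counting limit, and was not called (log2 1.23 ± 0.58).

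The lineage genes differed by a like amount. Csf1r, the receptor for CSF1 and IL-34, had 23.4, 26.6 and 26.4 CPM in mutant and 10.2, 10.8 and 10.8 CPM in wild-type vehicle cultures. All mutant values were more than the highest wild-type value by a wide margin (log2 1.26 ± 0.08, adjusted p = 5.05e-11). Spi1 had 1.75, 2.09 and 2.11 CPM in mutant and 0.855, 1.09 and 1.28 CPM in wild-type vehicle cultures (log2 0.85 ± 0.22, adjusted p = 0.00663). The groups did not overlap for Spi1 either.

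Of 10 macrophage surface receptor genes 7 were higher in the mutant in vehicle, and all 10 averaged over treatments. Adgre1, which encodes the macrophage surface protein F4/80 (ENSMUSG00000004730, chromosome 17, 57358691 to 57483527), had 7.18, 7.90 and 6.92 CPM in mutant and 2.71, 2.84 and 2.77 CPM in wild type (log2 1.40 ± 0.12, adjusted p = 1.99e-08). Mrc1, the mannose receptor CD206, had the largest difference in vehicle, with 5.26, 5.04 and 5.57 CPM in mutant and 1.95, 1.62 and 1.98 CPM in wild type (log2 1.51 ± 0.15, adjusted p = 1.03e-07). The lowest mutant library exceeded the highest wild-type library for both genes. Also higher were the lipid-binding receptor Trem2 (log2 1.1), the endosomal receptor Tlr13 (1.04), the integrin beta-2 chain Itgb2 (1.14), Itgam, the alpha chain of the complement receptor CR3 (0.99), and Ms4a6c, a membrane protein of the MS4A family (1.42). Itgam shares 3450 exonic bases on the same strand with another annotated gene, Gm49368, and Ms4a6c belongs to a family of close copies, so both are uncertain. The smallest difference in vehicle was in Cx3cr1, the fractalkine receptor, which had 8.14, 7.47 and 8.69 CPM in mutant and 5.89, 6.64 and 6.49 CPM in wild type (log2 0.35 ± 0.18, adjusted p = 0.204) and did not pass the test. Ms4a7, another MS4A protein, did not pass it either (log2 0.45 ± 0.23), nor did Ly86, whose values are given below.

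Of 9 leukocyte-wide genes 7 were higher in the mutant in vehicle. Lcp1, the actin-bundling protein L-plastin (ENSMUSG00000021998, chromosome 14, 75131101 to 75230842), had 31.6, 31.2 and 29.0 CPM in mutant and 18.9, 17.6 and 16.3 CPM in wild type (log2 0.80 ± 0.07, adjusted p = 2.18e-08). Laptm5, a lysosomal membrane protein of blood cells, had 15.7, 16.1 and 15.5 CPM in mutant and 7.50, 8.56 and 8.31 CPM in wild type (log2 0.95 ± 0.09, adjusted p = 4.04e-08). Neither gene overlapped between genotypes. Ptprc, which encodes CD45, the surface phosphatase of nucleated blood cells, had a log2 of 0.73 ± 0.16, and the others called were the small GTPase Rac2 (1.14), its exchange factor Vav1 (0.95), the tetraspanin Cd53 (0.84) and the adhesion receptor Cd84 (0.81). Coro1a, an actin-binding coronin, and the surface glycoprotein gene Cd52 were not called in vehicle (log2 0.55 ± 0.23 and 0.35 ± 0.25).

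Among Fc receptors and adaptors, Fcgr3, the low-affinity activating receptor, had 5.75, 6.28 and 5.82 CPM in mutant and 2.42, 2.4 and 2.81 CPM in wild-type vehicle cultures (log2 1.22 ± 0.13, adjusted p = 3.48e-07). The groups were well apart. The signalling adaptors Fcer1g (log2 0.89) and Tyrobp (0.85) were also higher. Fcgr1, the high-affinity receptor CD64, had 1.38, 0.285 and 1.56 CPM in mutant and 0.570, 0.568 and 0.786 CPM in wild type, so that mutant replicate 2 lay below every wild-type library, and it was not called (log2 0.81 ± 0.36, adjusted p = 0.140). Without that library its log2 was 1.18 and it was called (adjusted p = 0.00198). Fcgr2b (0.55 ± 0.34) was not called. Ly86, the MD-1 partner of the receptor RP105, which is counted with the surface receptors, was not called either (0.66 ± 0.36). All 3 C1q chains were higher, with log2 values of 1.20 ± 0.15 for C1qa, 0.85 ± 0.15 for C1qb and 0.87 ± 0.19 for C1qc.

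Averaged over treatments, the largest differences were in Rac2 (log2 1.40 ± 0.10), Trem2 (1.39 ± 0.14), Lyz2 and Adgre1 (1.35 ± 0.06), and the smallest in Ms4a6c (0.30 ± 0.12, adjusted p = 0.0390). The call on Ms4a6c was lost without any of 10 single libraries (log2 0.24 to 0.36 over all such fits, adjusted p up to 0.0958), and with unstranded counts, DESeq2 or the replicate number as a block. In vehicle, Ncf4 lost its call without wild-type replicate 2 or 3 or mutant replicate 2 or 3 (log2 0.79 to 1.19, adjusted p up to 0.141), and Coro1a gained one without mutant replicate 1 (log2 0.72, adjusted p = 0.0453).

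**Figure D3:**
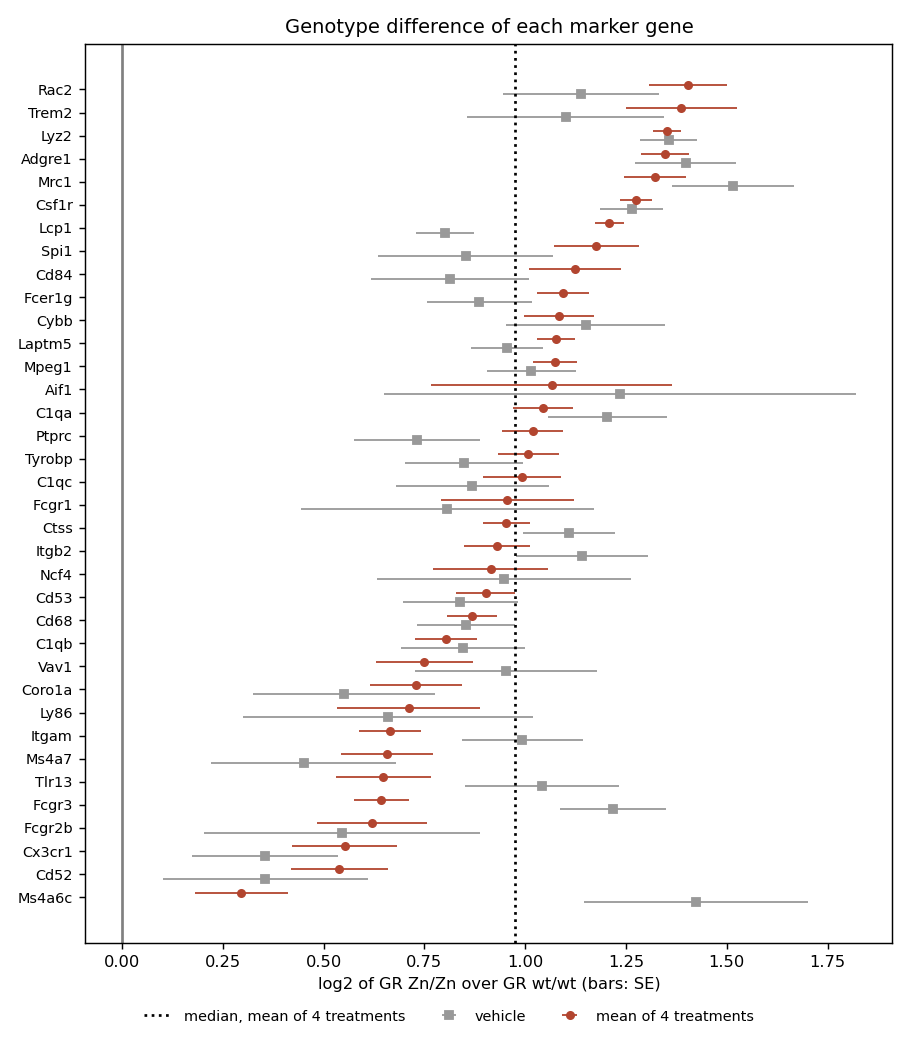
Log2 of GR Zn/Zn over GR wt/wt for each of the 36 genes (rows), in vehicle (grey squares) and averaged over the 4 treatments (red circles), with SE bars. All 36 averaged values lie above 0, between 0.30 and 1.40, around a median of 0.97.

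Other marker lists, of leukocytes and of other cells, differed between the genotypes as well, and their part in the result was not tested. Of 22 tested genes of leukocyte signalling outside the 36, 17 were higher in the mutant and 2 lower averaged over treatments (median log2 0.71), among them Dock2 (log2 1.13 ± 0.09) and Nckap1l (0.97 ± 0.06), which act on the actin skeleton, while the kinase gene Syk was lower (-0.67 ± 0.04). Of 14 tested other macrophage genes 9 were higher and 3 lower (median log2 0.81), with the scavenger receptor Msr1 at 1.09 ± 0.07, the phospholipase family gene Pld4 at 1.30 ± 0.10 and the folate receptor Folr2 at 2.83 ± 0.22. Csf1, the growth factor of macrophages, was higher in the mutant (log2 0.52 ± 0.02, adjusted p = 9.53e-16). Fibroblast genes differed too, with 10 of 12 higher and 1 lower (median log2 0.51), led by the receptor gene Pdgfra (1.96 ± 0.05). Of 5 tested genes listed as endothelial 3 were lower, led by Emcn (-2.35 ± 0.06). The list summed to 9.65 to 15.7 CPM in mutant and 23.6 to 39.6 CPM in wild-type libraries. Most of that sum came from Kdr and Emcn, at 8.15 and 1.85 CPM in mutant and 16.5 and 9.30 CPM in wild-type vehicle cultures. Pecam1 and Cdh5, of the same list, had only 0.130 and 0.220 CPM in mutant and 0.194 and 0.220 CPM in wild-type vehicle cultures. Erythroid and megakaryocyte genes summed to 4.43 to 7.58 CPM in mutant and 1.69 to 2.88 CPM in wild-type libraries, with both tested genes higher, led by the platelet chemokine gene Ppbp (log2 1.67 ± 0.07). Genes listed as fetal liver markers summed to 0.590 to 175 CPM in mutant and 0.707 to 196 CPM in wild-type libraries, and 0 of 7 tested were called. Most of that sum was Alb, which varied among replicates, at 55.3 ± 67.1 CPM in mutant and 64.7 ± 30.3 CPM in wild-type vehicle cultures (SD). Afp had only 0.0934 CPM in mutant and 0.0896 CPM in wild-type vehicle cultures, so the list does not show fetal liver cells.

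The 250 bases before the annotated starts were searched for short motifs on both strands. Promoter windows of RefSeq on GRCm38.p6 matched 27 of the 36 genes. The letters GAGGAA, the core that PU.1 and other ETS factors recognise, were in a window of 15 of the 27 genes (55.6%), against 25.9% of 27025 genes with a window. The letters AGAACA, one arm of a glucocorticoid response element, were in 12 of the 27 genes (44.4%), against 18.2% of genes. The NF-kB type letters GGGANTTCC were in 0 of the 27 genes, against 1.63% of genes, and the STAT type letters TTCNNNGAA in 1 (3.70%), that of Fcgr1, against 8.13%. None of these motifs contains another. A match is a string of letters and not a measured binding site. The windows of 4 genes that differ in their treatment responses below are printed 5′ to 3′ along the gene's own strand. The GAGGAA core, or TTCCTC where it lies on the other strand, is in capitals. All 4 genes are among the 15 with the core. The windows of Fcgr2b, Cx3cr1, Cybb, Cd84 and Ms4a6c, which also respond below, hold no such core. A link between the core and the responses was not tested. Positions are Ctss at chr3:95526536-95526785 (plus strand), Cd53 at chr3:106790150-106790399 (minus), Fcgr1 at chr3:96293970-96294219 (minus) and Trem2 at chr17:48346151-48346400 (plus), and no annotated exon lies in them.
Ctss: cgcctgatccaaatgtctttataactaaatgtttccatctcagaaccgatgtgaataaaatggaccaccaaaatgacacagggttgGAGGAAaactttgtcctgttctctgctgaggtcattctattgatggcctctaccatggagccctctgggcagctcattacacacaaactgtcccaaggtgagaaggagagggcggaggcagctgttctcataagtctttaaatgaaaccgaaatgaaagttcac
Cd53: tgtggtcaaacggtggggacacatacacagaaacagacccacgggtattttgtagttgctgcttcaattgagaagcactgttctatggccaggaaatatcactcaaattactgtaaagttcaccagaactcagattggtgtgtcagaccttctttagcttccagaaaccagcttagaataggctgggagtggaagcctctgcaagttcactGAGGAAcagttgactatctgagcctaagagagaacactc
Fcgr1: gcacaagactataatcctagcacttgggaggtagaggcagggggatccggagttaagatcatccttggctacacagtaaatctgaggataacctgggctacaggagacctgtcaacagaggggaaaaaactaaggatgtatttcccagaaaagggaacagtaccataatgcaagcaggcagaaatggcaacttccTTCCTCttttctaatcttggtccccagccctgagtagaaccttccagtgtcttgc
Trem2: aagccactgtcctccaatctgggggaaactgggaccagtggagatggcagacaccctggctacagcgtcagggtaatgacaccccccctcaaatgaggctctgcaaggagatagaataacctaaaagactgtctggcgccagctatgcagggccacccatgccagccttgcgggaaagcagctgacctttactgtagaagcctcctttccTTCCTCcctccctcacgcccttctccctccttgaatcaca

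LPS raised some of the 36 genes and lowered others. In the mutant 12 were higher with LPS and 10 lower, against 19.0% of all genes called higher and 17.7% lower, at a median log2 of -0.08. In wild type 9 were higher and 9 lower, against 14.0% and 12.4% of all genes, at a median of 0.03. Of the genes called, 16 were called in the same direction in both genotypes, 9 higher and 7 lower, which is 72.7% of the mutant's 22 and 88.9% of the 18 of wild type, and 0 in opposite directions. The mutant and wild-type log2 changes share no library and correlated across the 36 genes at Pearson's r of 0.970 and Spearman's rho of 0.946, where genes are not independent replicates. Over all genes tested the LPS effect was called different between the genotypes for 0.539%. Whether the agreement is particular to the 36 genes was not tested.

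The largest rise was in Fcgr2b (ENSMUSG00000026656, chromosome 1, 170958617 to 170976547). It had 7.18, 7.00 and 7.83 CPM with LPS and 0.441, 0.428 and 0.253 CPM with vehicle in the mutant. In wild type it had 5.03, 4.35 and 5.44 CPM with LPS and 0.380, 0.306 and 0.124 CPM with vehicle. Vehicle libraries lay near the counting limit and every LPS library well above it, 18.6-fold higher in the mutant and 18.3-fold higher in wild type (log2 4.22 ± 0.21 and 4.19 ± 0.25, adjusted p = 2.64e-13 and 7.39e-12). Fcgr2b lies beside its relative Fcgr3, and reads that fit both genes make them uncertain. Fcgr3 fell with LPS, with 3.24, 3.29 and 3.73 CPM with LPS and 5.75, 6.28 and 5.82 CPM with vehicle in the mutant (log2 -0.80 ± 0.13, adjusted p = 2.15e-05), and a log2 of -0.62 ± 0.16 in wild type (adjusted p = 0.00424). The inhibitory and the activating low-affinity receptor moved in opposite directions. The high-affinity receptor Fcgr1 rose, with log2 1.69 ± 0.29 in the mutant and 1.44 ± 0.36 in wild type.

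Cybb (ENSMUSG00000015340, chromosome X, 9435252 to 9487771) had 35.1, 31.7 and 30.1 CPM with LPS and 5.82, 5.85 and 4.90 CPM with vehicle in the mutant. In wild type it had 18, 15.8 and 18.9 CPM with LPS and 2.94, 2.66 and 1.94 CPM with vehicle. Both genotypes showed a separation of every LPS library from every vehicle library, at 5.81-fold in the mutant and 6.99-fold in wild type (adjusted p = 8.61e-12 and 4.55e-11). Ncf4, of the same oxidase, rose as well (log2 1.18 ± 0.26 in the mutant and 1.08 ± 0.32 in wild type). Ms4a6c had 4.62, 3.05 and 3.63 CPM with LPS and 1.11, 1.09 and 1.39 CPM with vehicle in the mutant (log2 1.65 ± 0.21), and 1.96, 1.66 and 2.55 CPM with LPS and 0.427, 0.524 and 0.372 CPM with vehicle in wild type (log2 2.20 ± 0.27). No LPS library of either genotype overlapped its vehicle group.

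Among other macrophage and leukocyte markers, Adgre1 and Ptprc rose in both genotypes. Adgre1 had 15.6, 13.4 and 14.1 CPM with LPS in the mutant (log2 0.97 ± 0.10) and 5.30, 6.83 and 6.79 CPM with LPS in wild type (log2 1.18 ± 0.13), against the vehicle values above. Ptprc had 9.53, 7.83 and 8.66 CPM with LPS and 4.22, 3.85 and 3.59 CPM with vehicle in the mutant (log2 1.14 ± 0.14), and 5.12, 5.12 and 5.0 CPM with LPS and 2.28, 2.10 and 2.69 CPM with vehicle in wild type (log2 1.11 ± 0.16). Lcp1 rose less, with log2 0.73 ± 0.07 in the mutant and 0.50 ± 0.07 in wild type, and Cd52 rose by 1.15 and 1.41 in mutant and wild type on the log2 scale. In the mutant Spi1 rose (log2 1.17 ± 0.19, adjusted p = 2.52e-05), as did Fcer1g (0.50 ± 0.12) and Ms4a7 (0.57 ± 0.21). In wild type these 3 had log2 values of 0.60 ± 0.23, 0.33 ± 0.14 and 0.58 ± 0.24 and were not called.

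The largest fall was in Cx3cr1 (ENSMUSG00000052336, chromosome 9, 119901616 to 120069879). It had 1.05, 0.568 and 0.881 CPM with LPS and 8.14, 7.47 and 8.69 CPM with vehicle in the mutant. In wild type it had 1.05, 1.07 and 0.489 CPM with LPS and 5.89, 6.64 and 6.49 CPM with vehicle. It was 10.1-fold lower in the mutant and 7.11-fold lower in wild type (log2 -3.34 ± 0.23 and -2.83 ± 0.24, adjusted p = 5.46e-11 and 3.18e-09), and with LPS the genotypes overlapped, at a mutant to wild-type ratio of 0.960. Tlr13, a receptor for bacterial ribosomal RNA in mice, had 1.01, 0.946 and 0.829 CPM with LPS and 4.66, 3.57 and 3.92 CPM with vehicle in the mutant (log2 -2.12 ± 0.21), and 0.228, 0.299 and 0.489 CPM with LPS and 2.18, 1.96 and 1.82 CPM with vehicle in wild type (log2 -2.57 ± 0.28). Cd84 had 1.26, 1.61 and 1.66 CPM with LPS and 4.06, 3.0 and 3.17 CPM with vehicle in the mutant (log2 -1.19 ± 0.20), and 0.457, 0.384 and 0.435 CPM with LPS and 2.28, 2.23 and 1.41 CPM with vehicle in wild type (log2 -2.20 ± 0.27). For both genes each LPS group lay below its vehicle group.

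Smaller falls were in Csf1r, with 16.6, 16.5 and 15.7 CPM with LPS in the mutant and 6.90, 7.00 and 8.26 CPM with LPS in wild type (log2 -0.64 ± 0.07 and -0.52 ± 0.09 against vehicle), in Laptm5 (-0.49 ± 0.09 in the mutant and -0.61 ± 0.10 in wild type) and in Trem2 (-1.07 ± 0.24 and -0.96 ± 0.29). Lyz2 (-0.40 ± 0.07), Vav1 (-0.76 ± 0.22) and Itgam (-0.43 ± 0.14) were called lower in the mutant, and C1qa (-0.49 ± 0.17) and Tyrobp (-0.46 ± 0.16) in wild type. Among the lysosome and phagocyte effector genes, those that did not pass the test in either genotype included Cd68 (log2 -0.16 ± 0.12 in the mutant and -0.15 ± 0.13 in wild type), Mpeg1 (0.07 ± 0.10 and 0.13 ± 0.12) and Ctss (-0.20 ± 0.11 and 0.14 ± 0.12). The leukocyte-wide gene Cd53 did not pass it either (0.01 ± 0.13 and 0.12 ± 0.15). Itgb2, Mrc1, Rac2, Coro1a, C1qb, C1qc, Ly86 and Aif1 also were not called in either genotype.

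**Figure D4:**
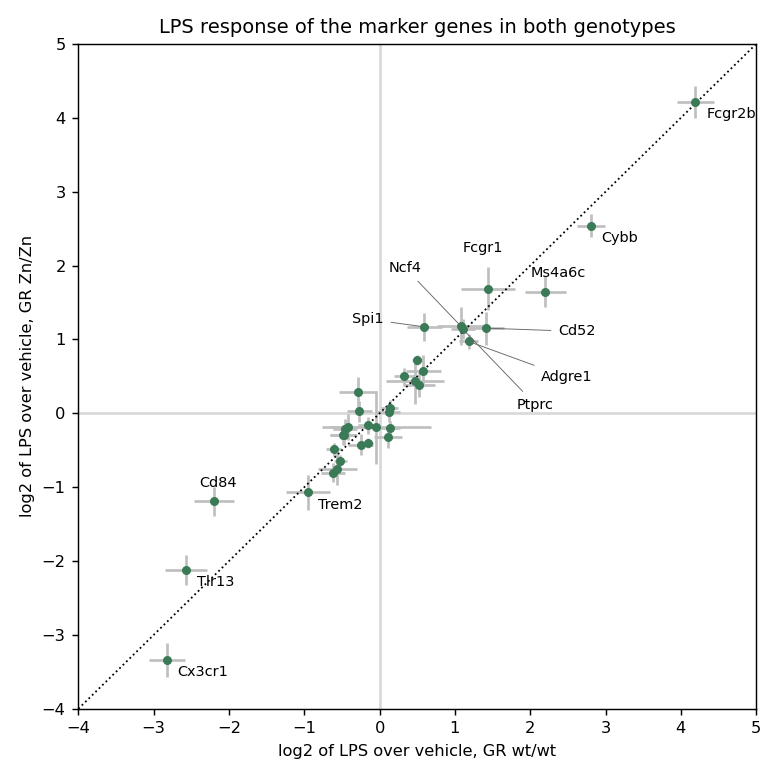
Log2 of LPS over vehicle for the 36 genes in GR Zn/Zn (y axis) against GR wt/wt (x axis), with SE bars and the line of equal change dotted. Points follow the line from Cx3cr1 at the lower left to Fcgr2b at the upper right (r = 0.970 across genes).

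The genotype difference of the LPS effect was called for 0 of the 36 genes by edgeR, against 0.539% of all genes, with 4 of the 36 at an unadjusted p below 0.05, and DESeq2 also called 0. The largest was in Cd84 (log2 1.01 ± 0.34, adjusted p = 0.304, 95% interval 0.34 to 1.67). The 95% interval lay within 1 of 0 on the log2 scale for 27 of the 36 genes, and reached past a 2-fold difference for the others. Several wild-type calls were lost when any of several single libraries was left out, with the log2 change keeping its sign. Over all fits without 1 library, C1qa had log2 -0.67 to -0.34 (call lost without vehicle replicate 2 or 3 or LPS replicate 1 or 3, adjusted p up to 0.204), Tyrobp -0.54 to -0.36 (lost without any vehicle replicate or LPS replicate 1 or 2, adjusted p up to 0.185), Trem2 -1.19 to -0.78 (lost without vehicle replicate 1 or 2 or LPS replicate 1 or 3, adjusted p up to 0.0953) and Ncf4 0.96 to 1.31 (lost without vehicle replicate 2 or 3 or LPS replicate 1, adjusted p up to 0.0695), while Spi1 was called without vehicle replicate 3 (log2 0.74, adjusted p = 0.0475). In the mutant, without vehicle replicate 1 Itgam was not called (log2 -0.35, adjusted p = 0.101) and C1qa was (log2 -0.44, adjusted p = 0.0179), and Ms4a7 lost its call without any vehicle replicate or LPS replicate 1 or 3 (log2 0.43 to 0.69, adjusted p up to 0.176).

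Other genes used as leukocyte and macrophage markers also went both ways with LPS. Of 22 tested leukocyte signalling genes 7 were higher and 6 lower in the mutant and 7 higher and 5 lower in wild type. Plek, a kinase C substrate of platelets and leukocytes, rose (log2 1.86 ± 0.11 in the mutant and 1.46 ± 0.12 in wild type), as did the adaptor Lcp2 (3.07 ± 0.20 and 3.08 ± 0.25), while the phosphatase gene Inpp5d fell (-3.34 ± 0.28 and -2.73 ± 0.32). Of 14 tested other macrophage genes 3 were higher and 3 lower in the mutant and 6 higher and 2 lower in wild type. The scavenger receptor gene Marco, under the counting limit in vehicle and named after its values were seen, had 3.25 ± 0.426 CPM with LPS and 0.00588 ± 0.0102 CPM with vehicle in the mutant and 1.39 ± 0.309 CPM with LPS and 0.0291 ± 0.0504 CPM with vehicle in wild type. Cd14, the LPS co-receptor, which fibroblasts can express, rose by 1.97 in the mutant and 1.63 in wild type on the log2 scale. The CSF1 receptor ligands rose in both genotypes, with log2 2.06 ± 0.04 for Csf1 and 1.98 ± 0.15 for Il34 in the mutant and 2.04 ± 0.04 and 1.60 ± 0.16 in wild type.

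**Figure D5:**
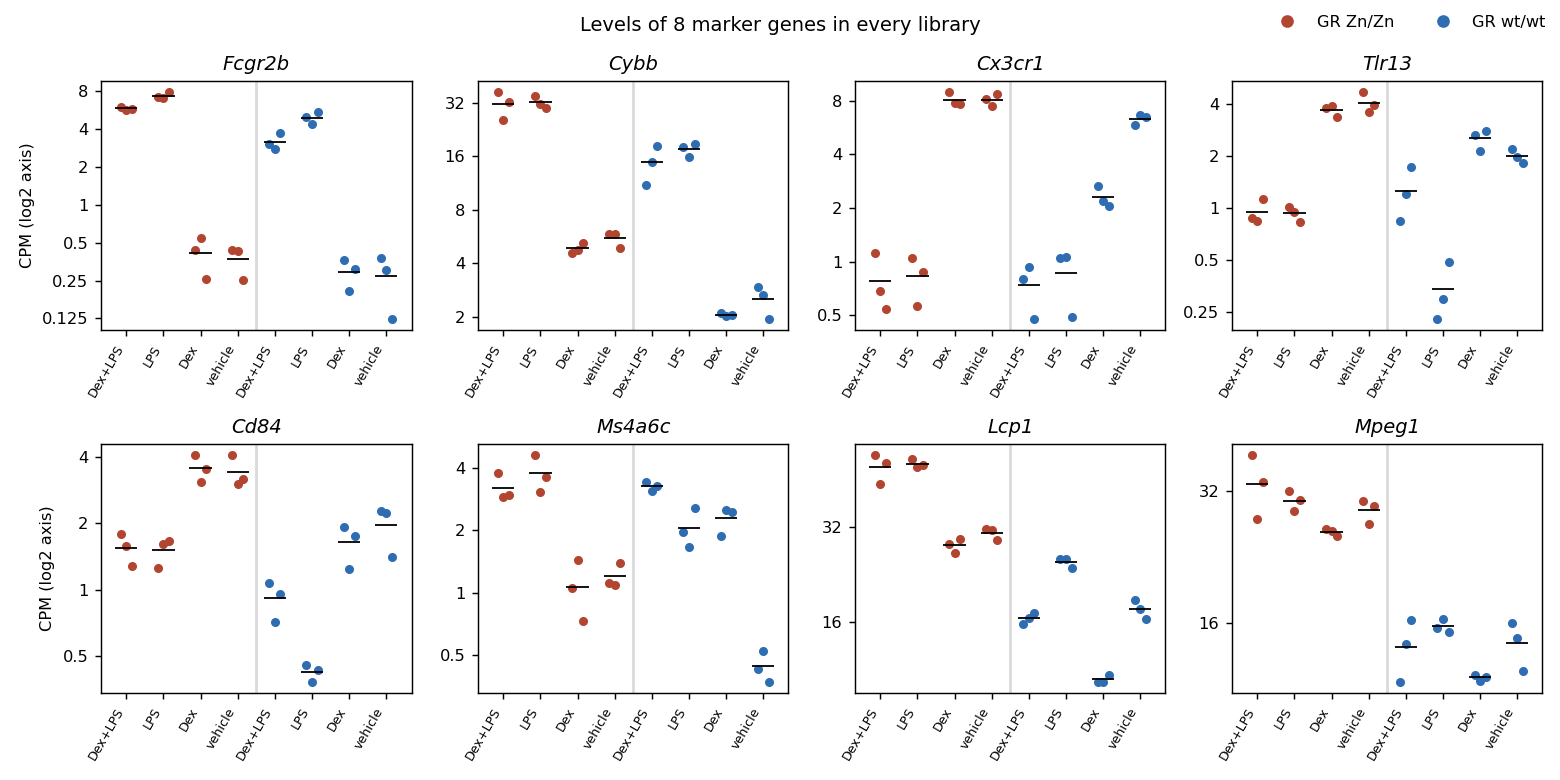
CPM of 8 of the genes in every library (points, log2 y axis) with group means (bars), GR Zn/Zn on the left and GR wt/wt on the right of each panel. Mpeg1 shows a genotype step with little change by treatment, Fcgr2b and Cybb rise and Cx3cr1, Tlr13 and Cd84 fall with LPS in both genotypes, and Ms4a6c is higher with Dex than with vehicle in GR wt/wt.

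With Dex alone, none of the 36 genes was called in the mutant by edgeR, where 0.00% of all genes were called, and 0 of the 36 had an unadjusted p below 0.05 (1109 of all genes did). DESeq2 also called 0 of the 36. In wild type 3 of the 36 were higher with Dex and 5 lower, against 7.92% of all genes called higher and 5.24% lower, at a median log2 of -0.20 over the 36 and 0.00 over all genes. The largest rise was in Ms4a6c (ENSMUSG00000079419, chromosome 19, 11469366 to 11482192), with 1.89, 2.52 and 2.46 CPM with Dex and 0.427, 0.524 and 0.372 CPM with vehicle in wild type. All Dex libraries exceeded all vehicle libraries, at 5.14-fold (log2 2.36 ± 0.26, adjusted p = 6.84e-07). In the mutant Ms4a6c had 1.05, 1.43 and 0.729 CPM with Dex and 1.11, 1.09 and 1.39 CPM with vehicle, which overlap (log2 -0.15 ± 0.24). With Dex all mutant libraries lay below all wild-type libraries for Ms4a6c, at a mutant to wild-type ratio of 0.468, the reverse of vehicle.

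Fcgr3 also rose in wild type, with 4.54, 4.63 and 4.15 CPM with Dex and 2.42, 2.4 and 2.81 CPM with vehicle (log2 0.80 ± 0.14, adjusted p = 0.000185), and Mrc1 rose by a log2 of 0.57 ± 0.16 (adjusted p = 0.0203), with 3.22, 2.48 and 2.51 CPM with Dex and 1.95, 1.62 and 1.98 CPM with vehicle. The Dex and vehicle libraries of wild type did not overlap for either gene. In the mutant their log2 values were -0.14 ± 0.12 and -0.08 ± 0.14.

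Among the genes that fell in wild type, Lcp1 had the smallest adjusted p, with 10.4, 10.4 and 10.9 CPM with Dex and 18.9, 17.6 and 16.3 CPM with vehicle (log2 -0.74 ± 0.08, adjusted p = 2.86e-07). Cx3cr1 fell most and had 2.65, 2.19 and 2.05 CPM with Dex and 5.89, 6.64 and 6.49 CPM with vehicle, 2.74-fold lower (log2 -1.46 ± 0.20, adjusted p = 1.69e-05). The libraries of both genes were clearly apart. Lyz2 had 34.4, 34.0 and 38.0 CPM with Dex (log2 -0.38 ± 0.07, adjusted p = 0.000686) and Csf1r 7.76, 7.97 and 7.94 CPM (log2 -0.42 ± 0.08, adjusted p = 0.00107). Ptprc had 1.57, 1.12 and 1.79 CPM with Dex (log2 -0.67 ± 0.18, adjusted p = 0.0151). Dex values lay below all vehicle values for these 3 genes. Ptprc lost its call without vehicle replicate 3 or Dex replicate 2 (log2 -0.81 to -0.49 over all fits without 1 library, adjusted p up to 0.123) and Mrc1 without vehicle replicate 2 or Dex replicate 1 (log2 0.43 to 0.64, adjusted p up to 0.164).

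The genotype difference of the Dex effect, mutant minus wild type, was called higher for 4 of the 36 genes and lower for 2, against 2.60% and 4.40% of all genes. It was lower for Ms4a6c (log2 -2.51 ± 0.36, adjusted p = 4.33e-05) and Fcgr3 (-0.94 ± 0.18, adjusted p = 0.00153), both of which Dex raised in wild type. It was higher for Cx3cr1 (1.46 ± 0.27, adjusted p = 0.000973), Lcp1 (0.61 ± 0.10, adjusted p = 0.000418), Lyz2 (0.33 ± 0.10, adjusted p = 0.0432) and Csf1r (0.37 ± 0.11, adjusted p = 0.0456), which Dex lowered in wild type. The calls on Csf1r (log2 0.32 to 0.43, adjusted p up to 0.130) and Lyz2 (log2 0.30 to 0.39, adjusted p up to 0.130) were each lost without any of 9 of the 12 libraries compared. The authors' deposited tables list 32 of the 36 genes and leave out Aif1, Ncf4, Ly86 and Ms4a6c. In them 2 were higher and 5 lower with Dex in wild type, against 8.91% and 6.09% of the genes in that table. In the mutant 0 were called, against 0.0238%.

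Other marker lists also changed with Dex in wild type. Of 12 fibroblast genes 2 were higher and 3 lower, led by the matrix gene Postn (log2 0.95 ± 0.07), and under LPS 2 were higher and 4 lower. Of 22 leukocyte signalling genes 2 were higher, Syk (log2 0.91 ± 0.07) and the oxidase gene Ncf1 (0.84 ± 0.14), and Plek was lower (-0.93 ± 0.14), and under LPS 4 were higher and 2 lower. Of 14 other macrophage genes 1 was higher, Lyve1, a hyaluronan receptor of lymphatic vessels and some macrophages, and under LPS 2 were higher and 3 lower. Lyve1 had 0.0424 ± 0.0422 CPM with Dex and 0.109 ± 0.0160 CPM with vehicle in the mutant and 3.89 ± 0.863 CPM with Dex and 0.103 ± 0.0251 CPM with vehicle in wild type (SD, n = 3 each). The genes named from these lists were chosen after their values were seen. In the mutant 0 genes of these 3 lists were called by edgeR with Dex, alone or under LPS. The part of these lists in the changes of the 36 genes was not tested.

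Under LPS, Dex changed 11 of the 36 genes in wild type, 6 higher and 5 lower, against 10.5% and 10.6% of all genes, and none in the mutant by edgeR, where 0.00657% of all genes were called. In the mutant 1 of the 36 had an unadjusted p below 0.05, and DESeq2 called 0. Tlr13, which LPS lowered, had 0.845, 1.21 and 1.72 CPM with Dex and LPS and 0.228, 0.299 and 0.489 CPM with LPS in wild type (log2 1.98 ± 0.28, adjusted p = 1.35e-05). In the mutant it had 0.871, 0.839 and 1.13 CPM with Dex and LPS and 1.01, 0.946 and 0.829 CPM with LPS, and the groups overlap (log2 0.02 ± 0.25). Cd84, also lowered by LPS, had 1.07, 0.717 and 0.957 CPM with Dex and LPS and 0.457, 0.384 and 0.435 CPM with LPS in wild type (log2 1.11 ± 0.28, adjusted p = 0.00643). The wild-type groups did not overlap for Tlr13 or Cd84.

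Fcgr3 had 3.87, 2.60 and 2.82 CPM with Dex and LPS and 1.51, 1.54 and 1.96 CPM with LPS in wild type (log2 0.89 ± 0.15, adjusted p = 0.000107), the same direction as with Dex alone. C1qa had 5.78, 4.48 and 4.39 CPM with Dex and LPS and 2.19, 3.37 and 2.72 CPM with LPS in wild type (log2 0.80 ± 0.16, adjusted p = 0.000882). C1qb had 12.7, 8.82 and 7.62 CPM with Dex and LPS and 5.35, 5.97 and 6.03 CPM with LPS (log2 0.72 ± 0.16, adjusted p = 0.00213). No LPS library reached a Dex with LPS library for these 3 genes, while the remaining chain, C1qc, was not called (log2 0.22 ± 0.21). Ms4a6c rose further, to 3.42, 3.09 and 3.28 CPM with Dex and LPS in wild type (log2 0.67 ± 0.20, adjusted p = 0.0193).

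Of the 5 genes that were lower, Lcp1 had the smallest adjusted p and the smallest fall, with 15.8, 16.5 and 17.1 CPM with Dex and LPS and 25.4, 25.3 and 23.7 CPM with LPS in wild type (log2 -0.59 ± 0.07, adjusted p = 1.90e-06). Fcgr2b had 3.02, 2.78 and 3.70 CPM with Dex and LPS and 5.03, 4.35 and 5.44 CPM with LPS (log2 -0.61 ± 0.17, adjusted p = 0.0104). Cd53 had 1.65, 1.84 and 2.23 CPM with Dex and LPS and 3.20, 2.56 and 3.15 CPM with LPS (log2 -0.60 ± 0.15, adjusted p = 0.00671). None of these 3 overlapped. Rac2 (-0.73 ± 0.20, adjusted p = 0.0130) and Cd52 (-0.66 ± 0.22, adjusted p = 0.0381) were also lower. Without the 5 libraries that stood apart, wild type with Dex and LPS keeps a single library, which is assumed to vary like the other groups. In that fit Cd84 (log2 0.73, adjusted p = 0.283), Rac2 (log2 -0.43, adjusted p = 0.249), Ms4a6c (log2 0.59, adjusted p = 0.0984) and Cd52 (log2 -0.68, adjusted p = 0.114) were not called. Over all fits without 1 library, Cd52 had log2 -0.74 to -0.57 (call lost without LPS replicate 2 or 3 or Dex with LPS replicate 2 or 3, adjusted p up to 0.127), Rac2 -0.87 to -0.49 (lost without LPS replicate 3 or Dex with LPS replicate 3, adjusted p up to 0.0911), Ms4a6c 0.53 to 0.84 (lost without LPS replicate 1 or 2, adjusted p up to 0.131) and Fcgr2b -0.76 to -0.53 (lost without LPS replicate 3, adjusted p = 0.0532).

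The genotype difference of the Dex effect under LPS, mutant minus wild type, was called higher for 2 of the 36 genes and lower for 5, against 5.36% and 5.03% of all genes. It was higher for Lcp1 (log2 0.56 ± 0.10, adjusted p = 0.000386) and Rac2 (0.92 ± 0.27, adjusted p = 0.0281). It was lower for Tlr13 (-1.96 ± 0.38, adjusted p = 0.00106), Fcgr3 (-1.0 ± 0.20, adjusted p = 0.00163), C1qa (-0.84 ± 0.22, adjusted p = 0.0123), C1qb (-0.70 ± 0.22, adjusted p = 0.0431) and Ms4a6c (-0.89 ± 0.28, adjusted p = 0.0437). With Dex and LPS the mutant to wild-type ratio was above 1 for 34 of the 36 genes and lowest, at 0.754, for Tlr13. Over all fits without 1 library, C1qa had log2 -1.0 to -0.67 (call lost without wild-type LPS replicate 1, adjusted p = 0.0609), Rac2 0.68 to 1.06 (lost without any of 4 libraries, wild-type LPS replicate 3, wild-type Dex with LPS replicate 3 and mutant LPS replicates 2 and 3, adjusted p up to 0.103), and C1qb -0.90 to -0.47 and Ms4a6c -1.05 to -0.69 (each lost without any of 9 of the 12 libraries compared, adjusted p up to 0.137 and 0.157). Without the 5 libraries that stood apart Fcgr3 was not called (log2 -0.69, adjusted p = 0.0909). In the authors' deposited tables, of 32 genes listed, 5 were higher and 5 lower with Dex under LPS in wild type, against 11.5% and 12.8% of the genes in that table. In the mutant 0 of the 29 with an adjusted p were called, against 0.231%.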

How the data were processed

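RNA of mouse embryonic fibroblasts, 24 libraries in 8 groups of 3, was deposited as read counts per gene. The counts came from STAR (2.4.2 and 2.4.2a on mm10, per the submitters' processing notes), and per the labels' protocols a stranded mRNA kit was used, so the reverse-strand counts were read. Entries that name no gene were left out, and held reads outside features (3.10 to 4.72% of reads), reads with several positions (3.74 to 5.79%), unmapped reads (2.92 to 5.58%) and ambiguous reads (1.18 to 1.41%). The authors' log2 fold changes and adjusted p-values in the authors' deposited tables are used where named; 96 further columns were not used.

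The 36 genes, the other marker lists and the tests were chosen with earlier results of these data known. All libraries entered 1 fit in edgeR 4.0.16 (R 4.3.3) with TMM scaling, its filter by group and robust quasi-likelihood tests, 1 coefficient per group and 11 comparisons, tested on simulated data. Genes were called at a two-sided Benjamini-Hochberg adjusted p below 0.05 over 15221 genes, and adjusted p-values without a named tool are edgeR's. CPM are scaled by TMM, the fold change is the fitted one, and its SE is the absolute log2 change over the root of F. Called genes are named in the order of adjusted p or by role, with library values for up to 8 per comparison, and the largest and smallest change. Alternatives were unstranded counts, RLE size factors, DESeq2 1.42.0, no filter on low counts, the compared groups alone, the replicate number as a block, the later library numbers as a term, and libraries left out singly, as the 3 later-numbered ones or as these and 2 more that stand apart. Positions and exon lengths are from GENCODE vM21 on GRCm38, the build also called mm10. Some genes overlap others on the opposite strand, which stranded counting separates.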

Additional observations from a re-analysis of the deposited data

Results flagged for a closer look

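In 13 cases the Dex effect on a gene differed between the genotypes by edgeR's quasi-likelihood test of the difference itself, mutant minus wild type on the log2 scale, which is why these are listed. For Dex alone the differences were -2.51 for Ms4a6c, -0.94 for Fcgr3, 1.46 for Cx3cr1, 0.61 for Lcp1, 0.37 for Csf1r and 0.33 for Lyz2. For Dex under LPS they were -1.96 for Tlr13, -1.0 for Fcgr3, -0.89 for Ms4a6c, -0.84 for C1qa, -0.70 for C1qb, 0.92 for Rac2 and 0.56 for Lcp1. Fcgr3, Lcp1 and Ms4a6c are in both sets.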

How the results depend on the processing

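No gene called in a direction was called in the opposite direction under any alternative, while values close to 0 can change sign. The counts of genes called moved by more than 1.5 times in 3 comparisons. Dex in wild type called 13 genes instead of 8, both in a fit of the compared groups alone and without the 5 libraries that stood apart, and Dex under LPS in wild type called 7 instead of 11 with the compared groups alone. The genotype difference of Dex under LPS called 4 to 8 genes instead of 7 when single libraries were left out, with 4 without wild-type LPS replicate 1 or mutant LPS replicate 3. Over the named genes, 1297 values kept their side of the threshold under the other settings, 46 lost a call and 14 gained one; with single libraries left out these were 1550, 90 and 4. Same-numbered libraries did not deviate together (r from -0.58 to 0.35 over 84 pairs, 17 over 0.1), so the replicate numbers were not taken to pair them. With the replicate number as a block the genotypes averaged over treatments differed in 35 genes instead of 36, LPS called 22 in the mutant and 17 in wild type, and Dex alone called 8 and Dex under LPS 12 in wild type. Depth limits Aif1, Fcgr2b, Ly86, Ncf4 and Cd52 most, with vehicle means under 1 CPM in both genotypes. The shares of all genes called in the alternative fits are not given here, and whether the shifts are particular to the 36 genes was not tested. The cause of these shifts was not tested.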
